A study of Mus musculus with 9 samples.

Results

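Beta-defensins and small secreted protease inhibitors were followed through the fat samples of mice with mutant alleles of Lmna, the gene of the nuclear lamins A and C. The genes are those whose single symbol in the platform annotation starts with Defb, Wfdc, Spint or Spink, which gave 46 of the 16299 genes with at least 1 probe set of their own. They comprise 27 Defb genes (beta-defensins), 9 Wfdc genes (WAP domain proteins), 3 Spint genes (Kunitz-type inhibitors) and 7 Spink genes (Kazal-type inhibitors). Exon-level microarrays measured total RNA from the perigonadal white fat of 4-month-old mice, with 3 arrays in each of 3 groups. WT is wild type. G609G stands for G609G/G609G mice, whose Lmna copies both carry the point mutation known from a mouse model of progeria, which makes the truncated lamin A called progerin. LCS stands for LCS/LCS mice, with both copies of Lmna carrying the allele known to yield lamin C without lamin A. The labels list no treatment. The mutations are carried in the germ line, so every tissue of the mice has them, and the labels do not give the sex of the animals or say that each array is its own animal. The p-values therefore set group differences only against the spread of these arrays within the groups, and part of that spread may be technical.

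Beta-defensins are short, cationic, disulfide-bonded peptides that damage microbial membranes, and many of them are secreted by the epithelium of the epididymis and bind to the surface of maturing sperm. WAP, Kunitz and Kazal domains are compact disulfide-bonded folds that block serine proteases by inserting a loop into the active site. Secreted WAP and Kunitz proteins are known from the male reproductive tract and from other mucosal surfaces, while a few membrane-bound Kunitz inhibitors act in most epithelia. The perigonadal fat of males lies against the epididymis and testis.

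Values are log2 intensities, and 1 unit is a 2-fold difference. A gene's value is the median polish of its probe sets, of which the 46 genes had 214 in all, from 1 to 15 each. The 25th percentile of the mean over all genes, 4.86, served as a line for dim genes. Of the 46 members, 34 had a mean above it, and 29 also had at least 3 probe sets; the other 12 lay under it. These 12 had every group mean under it: Defb3, Defb5, Defb6, Defb7, Defb8, Defb14, Defb34, Defb50, Spink3, Spink4, Spink7 and Wfdc12. The line refers to the gene value, and single probe sets of these genes can be brighter, such as 5143107 of Defb6 whose WT mean was 9.65 (10.27 in G609G, 9.36 in LCS). Log2 folds come from limma fitted over all 16299 genes, with adjusted p from Benjamini-Hochberg over the same genes and a threshold of 0.05.

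The fat label was checked against the tissue's markers. All 12 mature adipocyte genes listed were above the line in WT and LCS, and 11 in G609G, with list means from 12.20 to 12.23 in WT, 11.30 to 11.37 in G609G and 12.39 to 12.42 in LCS. RNA of neighbouring organs was also present: of 20 epididymal secretory genes outside the 4 families, 19 were above the line in WT and in LCS and 14 in G609G. Their mean ran from 10.84 to 10.86 in WT, 6.72 to 6.93 in G609G and 10.86 to 10.87 in LCS. All 20 testis germ cell genes were above the line in WT, 14 in G609G and 12 in LCS, with means from 8.13 to 8.32, 6.44 to 6.51 and 5.36 to 5.38. Skeletal muscle genes had means from 5.34 to 5.44 in WT, 11.13 to 11.16 in G609G and 5.61 to 5.68 in LCS. None of the 5 seminal vesicle genes measured was above the line in any group. In G609G the deposited values of most genes were lower, with a median log2 fold against WT of -0.45 over genes above the line and 0.06 over genes under it. Folds relative to the median gene, which remove an array-wide offset, are given where they change a call or a direction. Fewer cells of a type and less RNA per cell cannot be told apart in these bulk samples. The part of epididymal, testis and muscle RNA in the results that follow was not tested.

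**Figure D1:**
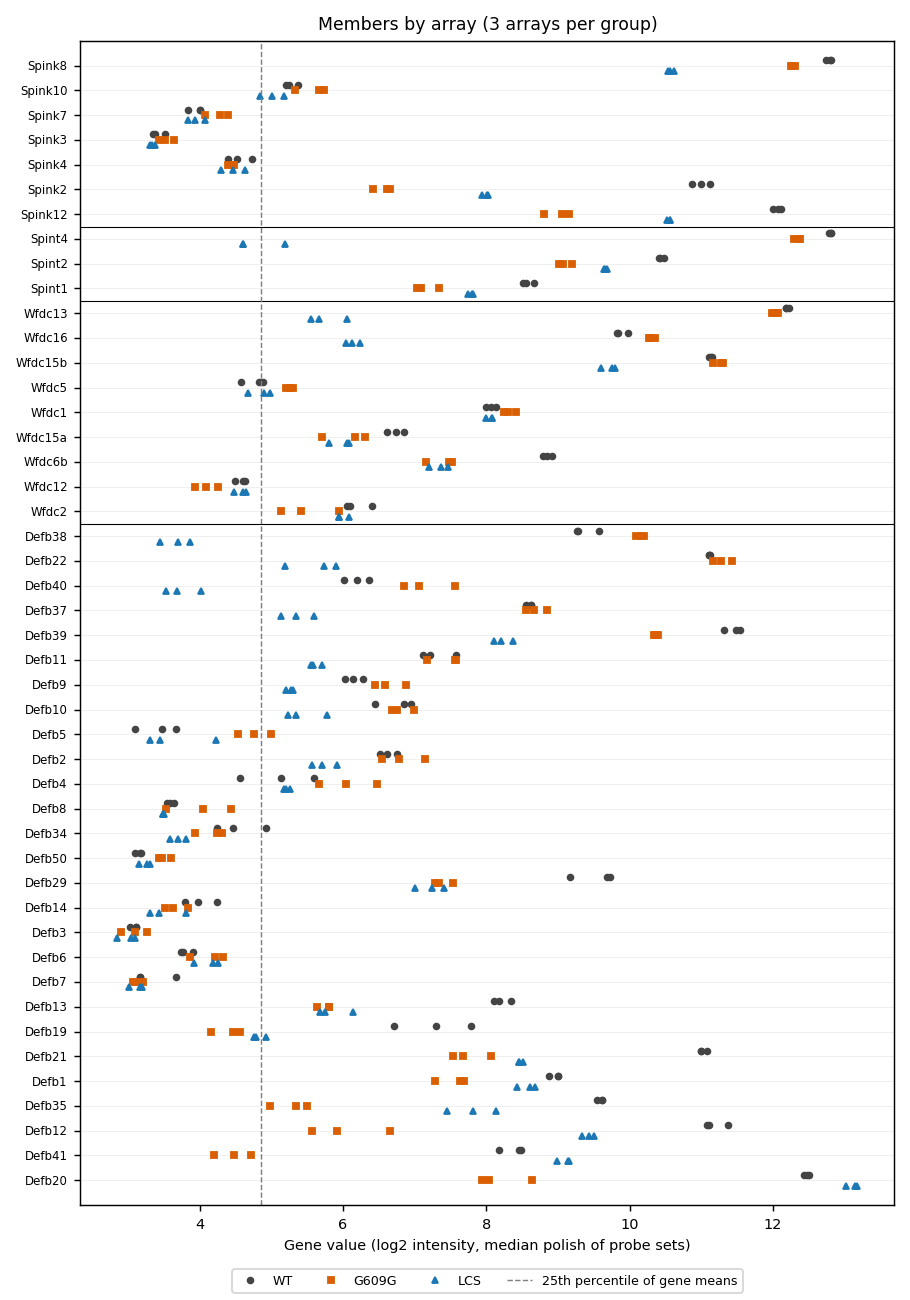
Gene values (x axis, log2 intensity) of the 46 members on the 9 arrays, by family and ordered within each family by the log2 fold of G609G minus LCS; circles are WT, squares G609G and triangles LCS, and the dashed line is the 25th percentile of gene means (4.86). Spint4, Wfdc13, Wfdc16, Defb22 and Defb38 have the LCS arrays far to the left of both other groups, while Defb20, Defb41 and Defb12 have the G609G arrays to the left.

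LCS against WT asks what differs in the fat samples when lamin C is made without lamin A. Defensin and inhibitor transcripts were lower there: 29 of the 46 members (63%) fell and 2 rose, where 11.2% of all genes fell, 15.7% rose and 27.0% passed in either direction. Relative to the median gene the counts were again 29 and 2, where 14.4% of all genes fell and 15.4% rose. At a fold of 2 or more, 21 members (45.7%) fell and 0 rose by limma as deposited, where 2.39% and 0.417% of all genes did. The counts at that fold were also 21 and 0 relative to the median gene, where 2.50% and 0.399% of all genes passed. The members' median log2 fold was -0.87, against 0.03 over all genes, and their groups did not overlap for 33 of 46, where 44.1% of all genes had none. Beside them, 19 of the 20 germ cell genes fell and 0 rose (median -2.82), while of the 20 epididymal secretory genes 10 rose and 6 fell (median 0.22). By family, 18 of 27 Defb genes, 5 of 9 Wfdc genes, 3 of 3 Spint genes and 3 of 7 Spink genes fell. Defb20 and Defb41 were those that rose.

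The Kunitz-type gene Spint4 had the largest fall among the members. Its values were 12.81, 12.81 and 12.79 in WT, 12.30, 12.36 and 12.38 in G609G, and 5.19, 4.61 and 4.60 in LCS. The LCS arrays lay far below both other groups, on either side of the line for dim genes, and G609G lay just under WT without overlap. Spint4 fell by 8.01 in LCS minus WT (SE 0.12, adjusted p = 6.24e-12), a 257-fold difference. All 4 of its probe sets were lower in LCS, by log2 differences between -8.93 and -7.62. In G609G minus WT its deposited fold was -0.46 (SE 0.12, adjusted p = 0.00634), and relative to the median gene it was -0.01 (adjusted p = 0.953).

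Wfdc13, which encodes a small WAP protein, is the nearest measured member to Spint4 on the chromosome. It read 12.19, 12.18 and 12.22 in WT, 11.99, 12.03 and 12.07 in G609G, and 5.67, 5.55 and 6.06 in LCS. It fell by 6.44 in LCS minus WT (SE 0.10, adjusted p = 6.39e-12), and all 6 probe sets were lower, by -8.60 to -3.10. Wfdc16, a WAP gene separated from Wfdc13 by 3 other protein-coding genes in RefSeq, read 9.84, 9.83 and 9.98 in WT, 10.29, 10.27 and 10.35 in G609G, and 6.24, 6.04 and 6.13 in LCS. Here LCS was low and G609G stood above WT, with no overlap among the 3 groups. The log2 folds of Wfdc16 were -3.75 in LCS minus WT (SE 0.07, adjusted p = 1.71e-11) and 0.42 in G609G minus WT (SE 0.07, adjusted p = 0.000173). In all 8 of its probe sets the LCS arrays were lower than WT without overlap. Wfdc15b, an antibacterial WAP protein, fell less: from 11.11, 11.14 and 11.15 in WT to 9.79, 9.60 and 9.75 in LCS, a log2 fold of -1.42 (SE 0.05, adjusted p = 5.69e-09).

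Among the beta-defensins, Defb22 and Defb38 showed the largest falls in LCS. Defb22 is the mouse counterpart of the defensin that coats primate sperm. It read 11.11, 11.11 and 11.12 in WT, 11.28, 11.17 and 11.43 in G609G, and 5.90, 5.73 and 5.19 in LCS. The WT and G609G arrays lay close together, and LCS lay far lower. Defb22 fell by 5.51 in LCS minus WT (SE 0.14, adjusted p = 3.17e-10), and all 7 probe sets were lower, by -8.16 to -3.07. Defb38 had values of 9.57, 9.28 and 9.26 in WT, 10.16, 10.09 and 10.20 in G609G, and 3.70, 3.44 and 3.86 in LCS, so that the LCS mean was under the line. It fell by 5.71 in LCS minus WT (SE 0.11, adjusted p = 3.16e-11) and rose by 0.78 in G609G minus WT (SE 0.11, adjusted p = 8.4e-05).

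Defb38 lies in a chromosomal run of 13 members from Defb40 to Defb7, which opens with Defb40, Defb37, Defb38, Defb39, Defb12 and Defb34 and no other protein-coding gene between them in RefSeq. The first 4 are described together because LCS was the lowest group for each, though their LCS values differed. Defb40 read 6.02, 6.19 and 6.36 in WT, 7.06, 6.85 and 7.56 in G609G, and 3.53, 3.68 and 4.02 in LCS. Defb37 read 8.63, 8.63 and 8.56 in WT, 8.55, 8.66 and 8.84 in G609G, and 5.60, 5.14 and 5.34 in LCS. Defb39 read 11.54, 11.48 and 11.32 in WT, 10.39, 10.37 and 10.34 in G609G, and 8.11, 8.37 and 8.21 in LCS. These 4 genes were lowest in LCS without overlap. Their log2 folds in LCS minus WT were -2.45 for Defb40, -3.24 for Defb37, -5.71 for Defb38 and -3.21 for Defb39. In G609G minus WT, Defb40 rose (0.97, adjusted p = 0.000552) and Defb39 fell (-1.08, adjusted p = 1.02e-07), while Defb37 was at 0.08 (adjusted p = 0.558). Defb12, the next gene after Defb39, was lowest in G609G instead, with log2 folds of -5.14 in G609G minus WT and -1.77 in LCS minus WT.

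The windows of 250 bases before the annotated start of 7 of these genes are shown because neighbouring or like-named genes among them had unlike values. Adjacent Defb22 and Defb20 were low in LCS and in G609G respectively. Spint4, Wfdc16, Defb38 and Defb39 were lowest in LCS, and Defb41 in G609G. The sequences are from RefSeq on build GRCm38.p6, 5′ to 3′ on the strand of the gene: Defb22 at chr2:152490139-152490388 on the minus strand, Defb20 at chr2:152476813-152477062 on the plus strand, Spint4 at chr2:164698251-164698500 on the plus strand, Wfdc16 at chr2:164638803-164639052 on the minus strand, Defb38 at chr8:19026569-19026818 on the minus strand, Defb39 at chr8:19064922-19065171 on the minus strand, Defb41 at chr1:18265139-18265388 on the minus strand. Capitals mark 3 motifs searched on both strands: AGAACA, found in binding sites of the androgen and glucocorticoid receptors, then the TATA box as TATAAA, then the CCAAT box. No motif overlaps another in the 7 windows.
Defb22: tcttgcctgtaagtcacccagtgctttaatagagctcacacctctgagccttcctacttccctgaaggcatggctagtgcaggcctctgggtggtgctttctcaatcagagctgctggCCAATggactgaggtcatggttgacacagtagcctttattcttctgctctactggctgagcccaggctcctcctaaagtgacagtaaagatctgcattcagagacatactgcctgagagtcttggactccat
Defb20: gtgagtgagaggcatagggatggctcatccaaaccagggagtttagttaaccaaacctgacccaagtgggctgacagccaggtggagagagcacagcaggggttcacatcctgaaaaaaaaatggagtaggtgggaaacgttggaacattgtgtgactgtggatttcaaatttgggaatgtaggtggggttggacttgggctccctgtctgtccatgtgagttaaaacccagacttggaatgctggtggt
Spint4: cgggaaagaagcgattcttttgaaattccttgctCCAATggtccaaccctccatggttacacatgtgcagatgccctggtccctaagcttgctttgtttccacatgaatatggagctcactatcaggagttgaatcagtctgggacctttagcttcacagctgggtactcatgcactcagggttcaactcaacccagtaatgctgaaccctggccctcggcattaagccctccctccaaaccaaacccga
Wfdc16: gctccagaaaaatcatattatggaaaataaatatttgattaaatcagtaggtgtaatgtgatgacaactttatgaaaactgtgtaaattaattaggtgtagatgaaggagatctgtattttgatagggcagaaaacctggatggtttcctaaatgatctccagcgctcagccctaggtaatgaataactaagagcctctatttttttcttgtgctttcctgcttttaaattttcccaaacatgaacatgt
Defb38: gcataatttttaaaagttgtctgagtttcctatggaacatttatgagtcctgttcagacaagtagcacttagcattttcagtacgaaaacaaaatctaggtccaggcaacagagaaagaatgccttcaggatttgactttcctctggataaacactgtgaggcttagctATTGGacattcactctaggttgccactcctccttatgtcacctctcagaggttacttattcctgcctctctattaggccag
Defb39: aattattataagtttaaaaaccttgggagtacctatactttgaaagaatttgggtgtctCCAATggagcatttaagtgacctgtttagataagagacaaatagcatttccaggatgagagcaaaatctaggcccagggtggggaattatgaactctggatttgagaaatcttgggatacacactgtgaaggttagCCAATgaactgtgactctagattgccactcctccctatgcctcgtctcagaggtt
Defb41: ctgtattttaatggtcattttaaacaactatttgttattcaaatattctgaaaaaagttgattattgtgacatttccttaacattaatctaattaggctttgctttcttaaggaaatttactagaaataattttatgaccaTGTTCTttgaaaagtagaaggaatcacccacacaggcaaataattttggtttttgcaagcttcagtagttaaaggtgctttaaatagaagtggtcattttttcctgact
Defb22, Spint4, Defb38 and Defb39 hold a CCAAT match, Defb41 holds an AGAACA match on its reverse strand, and Defb20 and Wfdc16 hold none of the 3 motifs in these letters. Windows were available for 26 of the 46 members. Over their 30 windows, 6 held AGAACA, 1 TATAAA and 9 CCAAT, where 16.1%, 12.4% and 33.8% of all 32851 windows of that length did. Only these exact letters were counted, so variants of a motif, such as other forms of the TATA box, were missed. Several windows were available for 3 members, and some of these overlap. The best local alignment between the Defb38 and Defb39 windows had 158 identical bases in 220 columns (71.8%), more aligned columns than any other pair of the 7. Defb22 and Wfdc16 were next by columns, with 48 identical bases in 75 (64%). Their alignment score was 13, near the 8 to 12 of the other pairs, against 92 for Defb38 and Defb39. A match here is a description of letters and not a binding site.

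The Kazal-type inhibitors measured above the line also fell in LCS, Spink10 excepted. Spink8 read 12.81, 12.80 and 12.74 in WT, 12.27, 12.26 and 12.31 in G609G, and 10.53, 10.56 and 10.62 in LCS. It fell by 2.21 in LCS minus WT (SE 0.03, adjusted p = 6.24e-12). In G609G minus WT its deposited fold was -0.51 (adjusted p = 4.95e-08), and relative to the median gene it was -0.06 (adjusted p = 0.239). Spink2, an inhibitor of the sperm protease acrosin made in male germ cells, read 11.12, 10.99 and 10.87 in WT, 6.42, 6.66 and 6.61 in G609G, and 8.02, 7.94 and 8.01 in LCS. Both mutants were far below WT, and G609G was the lower of them. Its log2 folds were -3 in LCS minus WT (SE 0.08, adjusted p = 4.01e-10) and -4.43 in G609G minus WT (SE 0.08, adjusted p = 3.1e-12). The germ cell genes measured beside it had median log2 folds of -2.82 and -1.81 in these comparisons, and their part in the fall of Spink2 was not tested. Spink12 read 12.07, 12 and 12.11 in WT, 8.80, 9.16 and 9.05 in G609G, and 10.57, 10.52 and 10.56 in LCS. It fell in both mutants, with log2 folds of -3.06 for G609G and -1.51 for LCS against WT.

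**Figure D2:**
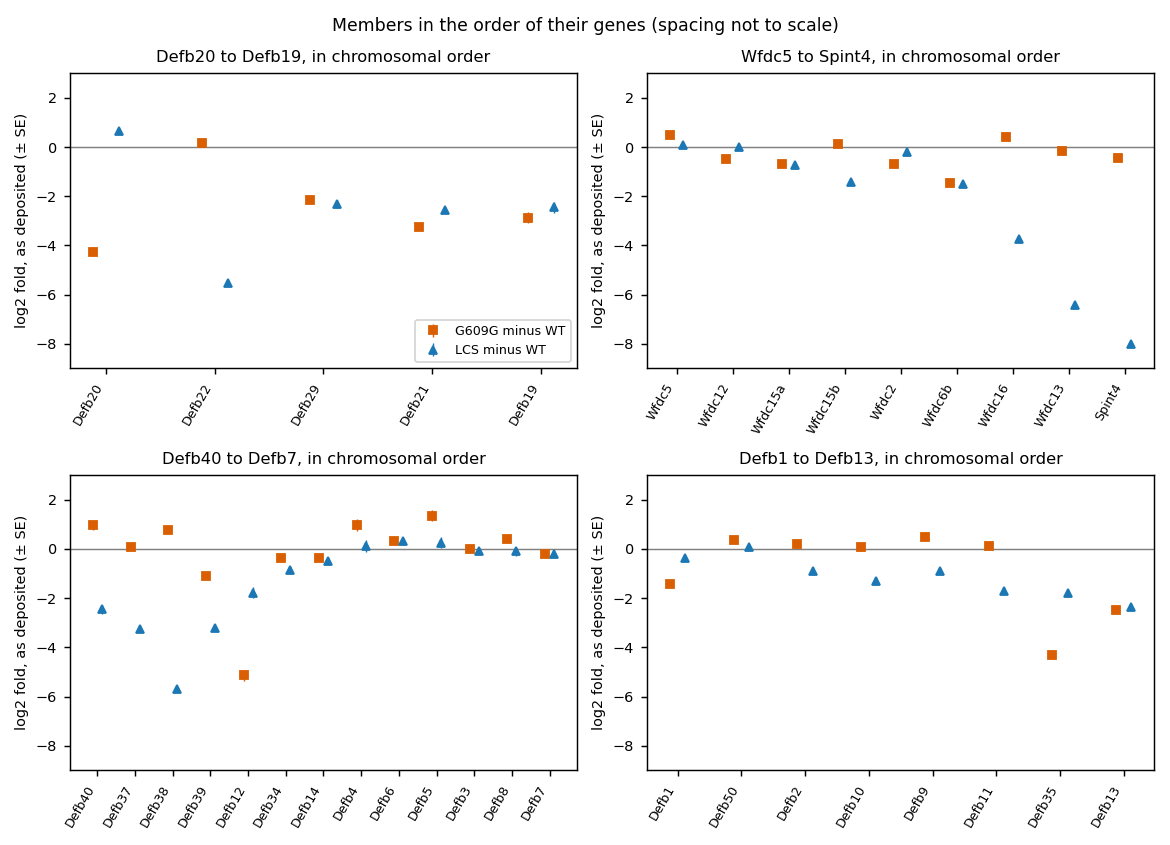
Log2 folds as deposited (y axis, ± SE from limma) of members in 4 chromosomal runs, each in gene order with spacing not to scale; squares are G609G minus WT and triangles LCS minus WT, which share the WT arrays. The last 3 members of the Wfdc run (Wfdc16, Wfdc13, Spint4) and the first 4 of the Defb40 run are low in LCS, while adjacent Defb20 and Defb22 are low in G609G and in LCS respectively.

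G609G against WT asks what differs between arrays with and without the progeria allele. Muscle and epididymal marker genes were also at unlike levels in these groups, and their part in the folds was not tested. Of the 46 members 20 fell (43.5%) and 12 rose (26.1%), where 54.8% of all genes fell, 13.0% rose and 67.8% passed in either direction. On the scale that sets the median gene to no change, 15 members fell (32.6%) and 23 rose (50%), where 27.7% and 45.4% of all genes did. The share of members that fell was thus under the background as deposited and near it on the relative scale. By 2-fold or more, 15 members (32.6%) fell and 1 rose as deposited, where 13.4% and 2.68% of all genes did. On the relative scale 11 (23.9%) fell and 4 rose by that much, where 5.18% and 6.09% of all genes did. The members' median log2 fold was -0.18, against -0.29 over all genes. Of 27 Defb genes 10 fell and 7 rose, of 9 Wfdc genes 4 fell and 3 rose, of 7 Spink genes 3 fell and 2 rose, and all 3 Spint genes fell. Relative to the median gene these counts became 10 fallen and 14 risen for Defb, 1 and 5 for Wfdc, 2 and 4 for Spink and 2 and 0 for Spint. Of the 34 members above the line 15 rose and 15 fell on that scale, and of the 12 under it 8 rose and 0 fell, where 3262 of the 4075 genes under the line rose and 134 fell. Spink3, Spink4 and Spink7 are among those 8. Groups did not overlap for 33 of 46 members, where 69.5% of all genes had none. Of the 20 epididymal secretory genes outside the families, 18 fell and 1 rose beside them (median -4.38), and of the 20 germ cell genes 20 fell.

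Defb12 and Defb20 had large falls in G609G. Defb12 read 11.08, 11.37 and 11.11 in WT, 5.91, 6.66 and 5.57 in G609G, and 9.50, 9.33 and 9.43 in LCS. It fell by 5.14 in G609G minus WT (SE 0.21, adjusted p = 2.32e-09), and its 3 probe sets were lower by -6.57 to -3.38. Defb35, with a single probe set, read 9.54, 9.62 and 9.62 in WT, 5.49, 5.34 and 4.98 in G609G, and 8.13, 7.45 and 7.82 in LCS, and fell by 4.32 in G609G. Defb12 and Defb35 share 2 further probe sets that the annotation assigns to both, so their separate values are uncertain. The pairs Defb2 and Defb11 (2 probe sets) and Defb4 and Defb8 (1 probe set) are uncertain in the same way.

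Defb20 read 12.47, 12.43 and 12.50 in WT, 7.94, 8.04 and 8.64 in G609G, and 13.02, 13.15 and 13.18 in LCS. The G609G arrays were lowest and the LCS arrays highest, without overlap. It fell by 4.26 in G609G minus WT (SE 0.14, adjusted p = 3.43e-10) and rose by 0.65 in LCS minus WT (SE 0.14, adjusted p = 0.00445), in all 3 probe sets each. Defb41, an epididymal defensin on another chromosome, had the same order, with 8.49, 8.46 and 8.17 in WT, 4.20, 4.48 and 4.72 in G609G, and 9.16, 8.99 and 9.14 in LCS. It fell by 3.91 in G609G minus WT (SE 0.13, adjusted p = 4.36e-10) and rose by 0.72 in LCS minus WT (SE 0.13, adjusted p = 0.00158).

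The run of 5 defensin genes that starts with Defb20 held members low in G609G, in LCS and in both. Defb22 follows Defb20 directly. After 2 other protein-coding genes come Defb29, Defb21 and Defb19, which were low in both mutants. Defb29 read 9.69, 9.17 and 9.73 in WT, 7.29, 7.34 and 7.54 in G609G, and 7.41, 7.24 and 7.01 in LCS. Defb21 read 11, 11 and 11.08 in WT, 7.68, 7.54 and 8.07 in G609G, and 8.51, 8.45 and 8.45 in LCS. Defb19 read 6.71, 7.78 and 7.30 in WT, 4.56, 4.46 and 4.15 in G609G, and 4.78, 4.92 and 4.75 in LCS, under the line in both mutant means. In G609G minus WT the log2 folds were -2.14 for Defb29, -3.26 for Defb21 and -2.87 for Defb19, and in LCS minus WT they were -2.31, -2.56 and -2.45. Defb13, which ends the run from Defb1 to Defb13, was also low in both mutants: 8.17, 8.11 and 8.35 in WT, 5.80, 5.80 and 5.63 in G609G, and 5.75, 5.68 and 6.14 in LCS. The WAP gene Wfdc6b had log2 folds of -1.46 in G609G minus WT and -1.51 in LCS minus WT.

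Defb1, the constitutive defensin of many epithelia, read 8.87, 9 and 9 in WT, 7.28, 7.69 and 7.63 in G609G, and 8.68, 8.61 and 8.43 in LCS. It fell by 1.43 in G609G minus WT (SE 0.11, adjusted p = 3.88e-07). Its fall of 0.38 in LCS minus WT (adjusted p = 0.021) lost its call without WT replicate 2 (-0.36, adjusted p = 0.0744), WT replicate 3 (-0.36, adjusted p = 0.0656) or LCS replicate 3 (-0.31, adjusted p = 0.0973), and with a plain mean of probe sets (-0.32, adjusted p = 0.0555).

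Spint1 and Spint2 encode membrane-bound Kunitz inhibitors of hepatocyte growth factor activator and of matriptase, the protease of the gene St14. Spint1 read 8.51, 8.56 and 8.66 in WT, 7.03, 7.09 and 7.34 in G609G, and 7.80, 7.75 and 7.82 in LCS. Spint2 read 10.41, 10.42 and 10.48 in WT, 9.07, 9.02 and 9.20 in G609G, and 9.66, 9.69 and 9.64 in LCS. For both genes the order was WT, LCS and G609G, without overlap. The log2 folds of Spint1 were -1.42 in G609G minus WT (SE 0.09, adjusted p = 5.88e-08) and -0.79 in LCS minus WT (SE 0.09, adjusted p = 4.2e-05), and the folds of Spint2 were -1.34 (SE 0.05, adjusted p = 1.4e-09) and -0.77 (SE 0.05, adjusted p = 7.76e-07). All 15 probe sets of Spint1 and all 12 of Spint2 were lower in G609G than in WT without overlap. Of 16 epithelial markers 14 fell in G609G minus WT, where 54.8% of all genes did. Relative to the median gene 12 of them fell, where 27.7% of all genes did. In LCS minus WT 8 fell and 2 rose, where 11.2% of all genes fell and 15.7% rose. The list means ran from 8.07 to 8.13 in WT, 7.05 to 7.10 in G609G and 7.80 to 7.84 in LCS. The part of epithelial RNA in the folds of Spint1 and Spint2 was not tested.

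As deposited, members that rose in G609G did so by less than 2-fold, except Defb5, which has a single probe set. Wfdc1, a secreted WAP protein of stromal cells, read 7.99, 8.13 and 8.06 in WT, 8.25, 8.42 and 8.30 in G609G, and 8.08, 8.08 and 8 in LCS. It rose by 0.26 in G609G minus WT (SE 0.07, adjusted p = 0.00513) and was at -0.01 in LCS minus WT (adjusted p = 0.964). Defb4 is an inducible defensin known as a ligand of the receptor Ccr6. It read 5.13, 5.60 and 4.56 in WT, 6.04, 6.48 and 5.66 in G609G, and 5.21, 5.18 and 5.26 in LCS. Defb4 rose by 0.96 in G609G minus WT (SE 0.24, adjusted p = 0.00437). Its 3 probe sets rose by 0.57 to 2.70, 2 of them without overlap. The Defb4 call was lost with an ordinary t-test after Benjamini-Hochberg (adjusted p = 0.101). Defb9 rose by 0.50 (adjusted p = 0.0026) and Wfdc5, at the start of the Wfdc run, by 0.49 (adjusted p = 0.00171). The Wfdc5 mean was above the line only in G609G (5.25), with 4.76 in WT and 4.85 in LCS. Defb5 (1.35, adjusted p = 0.000239), Defb50 (0.35, adjusted p = 0.00145), Defb6 (0.33, adjusted p = 0.0353) and Spink7 (0.30, adjusted p = 0.0244) also passed, with every group mean under the line. Spink7 no longer passed when WT replicate 3, G609G replicate 1 or G609G replicate 3 was left out, at adjusted p = 0.0895, 0.0919 and 0.0546. Defb6 no longer passed when WT replicate 1 or 3 or G609G replicate 1 or 2 was left out, with adjusted p from 0.0868 to 0.135.

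Several members had a G609G fold whose call or direction turned with the scaling. Wfdc13 was -0.16 as deposited (adjusted p = 0.17) and 0.28 relative to the median gene (adjusted p = 0.0226). Defb22 was 0.18 (adjusted p = 0.288) and 0.63 (adjusted p = 0.00214), Wfdc15b 0.11 (adjusted p = 0.092) and 0.56 (adjusted p = 1.32e-06), and Defb37 0.08 (adjusted p = 0.558) and 0.53 (adjusted p = 0.000862). The deposited falls of Wfdc2, a secreted WAP protein of epithelia (-0.69, adjusted p = 0.00498), of Wfdc15a (-0.67, adjusted p = 0.0016) and of Wfdc12 (-0.48, adjusted p = 0.000984) were -0.24, -0.22 and -0.03 relative to the median gene, with adjusted p = 0.241, 0.204 and 0.81. On the relative scale Defb2 (0.64, adjusted p = 0.00181), Defb10 (0.52, adjusted p = 0.0171) and Defb11 (0.58, adjusted p = 0.00253) passed as well. So did Defb3 (0.46), Defb8 (0.86), Spink3 (0.57) and Spink4 (0.34), with every group mean under the line. Of the 4075 genes under the line, 3262 rose on that scale. A fit of the 6 arrays of these groups with the replicate number as a block also passed Wfdc13 (adjusted p = 0.000975), Defb22 (adjusted p = 0.0175), Wfdc15b (adjusted p = 0.0417), Defb14 (-0.35, adjusted p = 0.0307) and Defb34 (-0.38, adjusted p = 0.0202) with their deposited folds. The first 4 of these genes passed on the 6 arrays without the block too. With the block over all 9 arrays Defb14 (adjusted p = 0.0186), Defb34 (adjusted p = 0.00871) and Defb8 (0.41, adjusted p = 0.0365) passed.

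**Figure D3:**
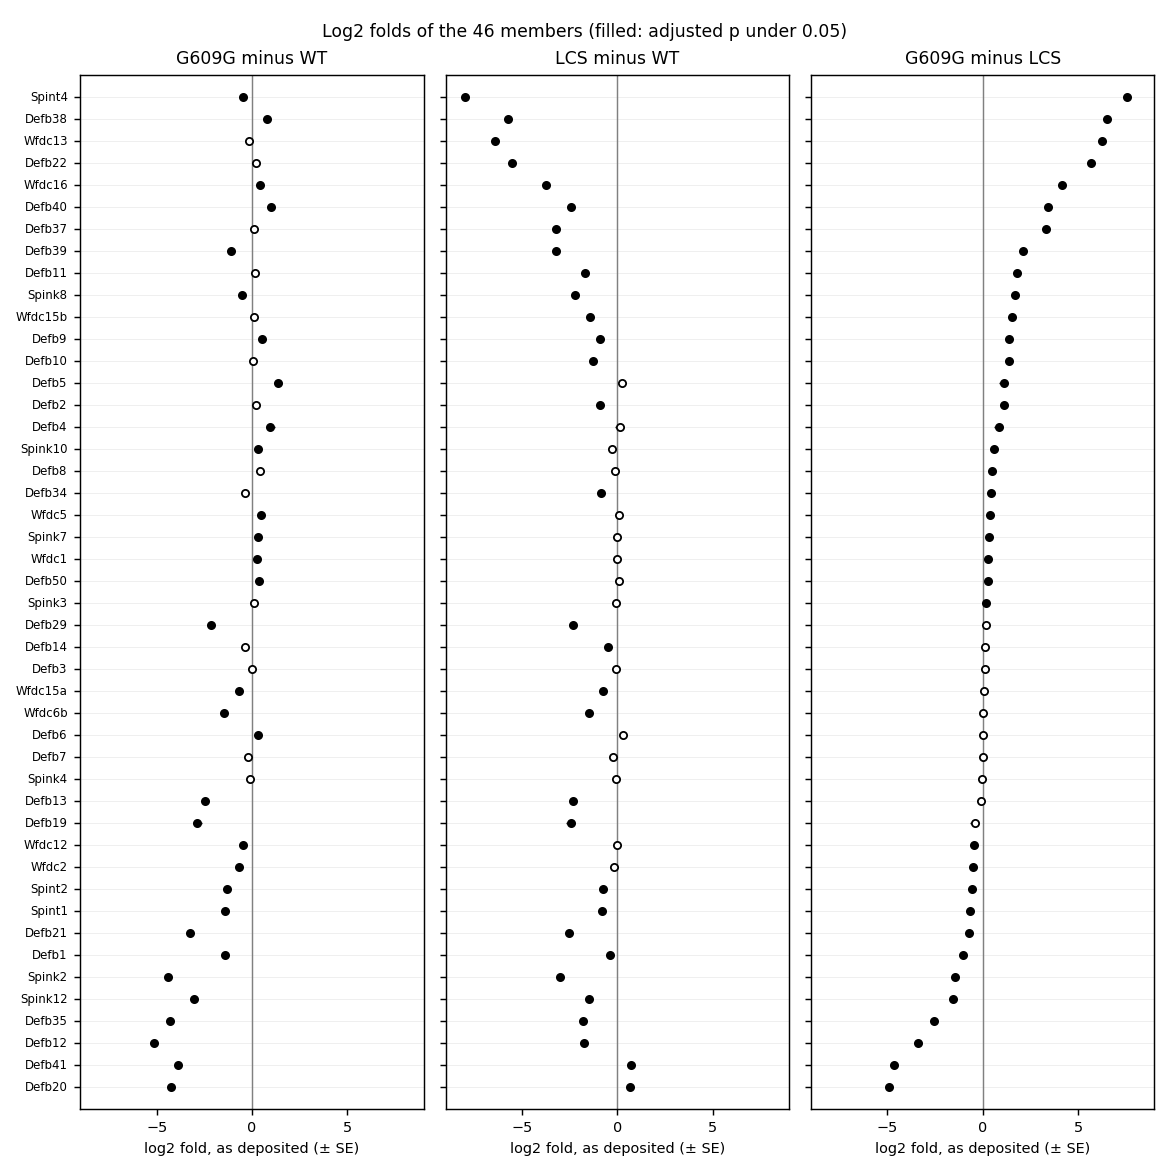
Log2 folds as deposited (x axis, ± SE from limma) of the 46 members in the 3 comparisons, in the order of G609G minus LCS; filled points have an adjusted p under 0.05. The right panel runs from -4.91 (Defb20) to 7.55 (Spint4), with 24 members called higher in G609G and 12 called lower.

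The mutants were also compared with each other, with the WT arrays entering only the estimate of the spread. Here 24 members (52.2%) were higher in G609G than in LCS and 12 (26.1%) lower, where 14.0% of all genes were higher, 52.4% lower and 66.4% either. Relative to the median gene 33 (71.7%) were higher and 8 (17.4%) lower, where 49.4% and 27.3% of all genes were. At a fold of 2 or more, 15 members (32.6%) were higher and 7 (15.2%) lower, where 3.10% and 15.0% of all genes were. The counts at that fold were 17 and 5 relative to the median gene, where 7.16% and 5.90% of all genes passed. The median log2 fold of the members was 0.23, and that of all genes -0.27. The arrays of the mutants did not overlap for 36 of 46 members, where 70.8% of all genes had none. The largest differences upward were Spint4 (7.55, SE 0.12), Defb38 (6.49, SE 0.11), Wfdc13 (6.27, SE 0.10), Defb22 (5.69, SE 0.14) and Wfdc16 (4.17, SE 0.07), each with an adjusted p between 8.88e-13 and 3.42e-11. Defb40 (3.42), Defb37 (3.32), Defb39 (2.13), Defb11 (1.82), Spink8 (1.71) and Wfdc15b (1.53) followed.

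The largest differences downward between G609G and LCS were Defb20 (-4.91, SE 0.14, adjusted p = 8.52e-11), Defb41 (-4.63, SE 0.13, adjusted p = 8.58e-11), Defb12 (-3.37, SE 0.21, adjusted p = 6.47e-08) and Defb35 (-2.53, SE 0.16, adjusted p = 8.47e-08). Spink12 (-1.55), Spink2 (-1.43) and Defb1 (-1.04) were also lower in G609G on either scale. Defb21 (-0.71, adjusted p = 0.000116) was at -0.23 relative to the median gene (adjusted p = 0.0469) and lost its call with quantile normalization (-0.19, adjusted p = 0.0588). The lower values of Spint1 (-0.64) and Spint2 (-0.57) lost their call relative to the median gene (-0.16, adjusted p = 0.0518, and -0.09, adjusted p = 0.0723). Defb13 (-0.11, adjusted p = 0.44), Defb29 (0.17, adjusted p = 0.333) and Wfdc6b (0.04, adjusted p = 0.73) did not pass as deposited and were higher in G609G relative to the median gene, at 0.37, 0.65 and 0.52 (adjusted p = 0.0169, 0.00128 and 0.000252). Defb19 was at -0.43 (adjusted p = 0.105) and at 0.05 on the relative scale (adjusted p = 0.836). The Wfdc2 call (-0.50, adjusted p = 0.0286) was lost without G609G replicate 1 or 2 or without any 1 LCS array, with adjusted p from 0.053 to 0.119. Relative to the median gene Wfdc2 was at -0.02 (adjusted p = 0.935), with quantile normalization at -0.14 (adjusted p = 0.589) and centred on all genes at -0.21 (adjusted p = 0.325). The Wfdc12 call (-0.48, adjusted p = 0.000921) was also lost relative to the median gene, at 0 (adjusted p = 0.984). On that scale Wfdc15a (0.56) passed, and so did Defb3 (0.58), Defb6 (0.50), Defb7 (0.49), Defb14 (0.62) and Spink4 (0.46) among the members under the line. There 3549 of the 4075 genes under the line were higher in G609G and 40 lower, with a median log2 fold of 0.56. Spink3, the pancreatic trypsin inhibitor now named Spink1, was called at 0.19 (adjusted p = 0.047), under the line in every group. That call held without WT replicate 1 or G609G replicate 3 and was lost without any other 1 array, with adjusted p from 0.0529 to 0.155. The calls of Defb34 (0.46), Defb8 (0.51) and Spink7 (0.31), also under the line, were each lost without single mutant arrays. Defb34 failed without G609G replicate 1 or 2 or LCS replicate 1 or 3, and Defb8 without G609G replicate 2 or 3 or LCS replicate 1. Spink7 failed without G609G replicate 1 or 3 or LCS replicate 1 or 2.

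A further cluster, Defb2, Defb10, Defb9 and Defb11, lies in a row between Defb50 and Defb35. Defb11 read 7.21, 7.12 and 7.57 in WT, 7.56, 7.57 and 7.17 in G609G, and 5.55, 5.58 and 5.71 in LCS. The WT and G609G arrays overlapped, and LCS was lower. In LCS minus WT the log2 folds were -0.89 for Defb2, -1.29 for Defb10, -0.89 for Defb9 and -1.69 for Defb11, and all 4 fell. These genes are close paralogs, so a probe set of one may read another, and they are not 4 independent observations. Of the members under the line, Defb34 (-0.85, adjusted p = 0.00218) and Defb14, an inducible defensin (-0.49, adjusted p = 0.0294), fell in LCS minus WT. The Defb14 call was lost without WT replicate 1 or 2 or LCS replicate 2 or 3, with adjusted p from 0.0683 to 0.124. Defb3 (-0.09), Defb7 (-0.21), Defb8 (-0.10), Spink4 (-0.08) and the other 6 did not pass.

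**Figure D4:**
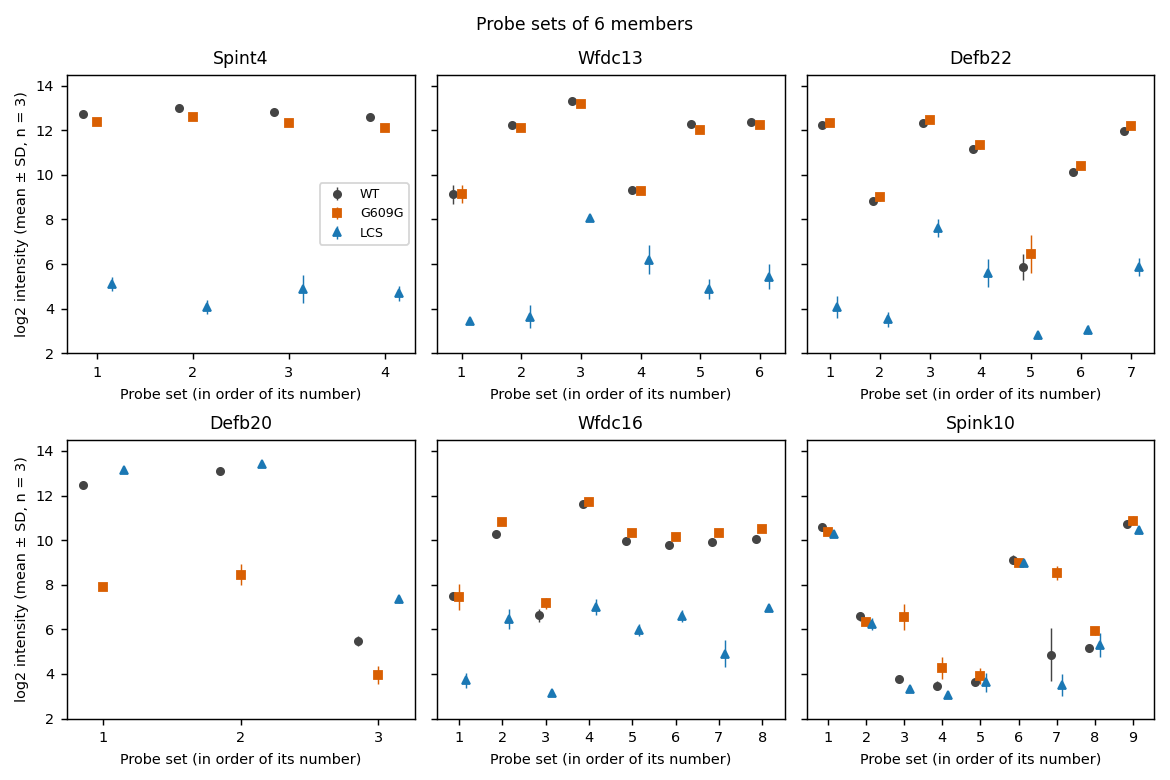
Probe set means (y axis, log2 intensity, ± SD over 3 arrays) of Spint4, Wfdc13, Defb22, Defb20, Wfdc16 and Spink10 in WT (circles), G609G (squares) and LCS (triangles), numbered along the x axis by probe set number and not by position in the gene. Every probe set shown is lowest in LCS for Spint4, Wfdc13, Defb22 and Wfdc16 and lowest in G609G for Defb20, while in Spink10 the third and seventh stand apart with G609G high.

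The probe sets of Spink10 did not move together. Other members also had unlike probe sets: in G609G minus LCS, Defb9 had 1 lower and 3 higher without overlap (-1.19 to 2.84). As a gene Spink10 had values of 5.21, 5.37 and 5.25 in WT, 5.33, 5.74 and 5.67 in G609G, and 5.17, 4.84 and 5.01 in LCS. Its log2 folds were 0.30 in G609G minus WT (adjusted p = 0.0484) and -0.27 in LCS minus WT (adjusted p = 0.144). The rise in G609G no longer passed with the replicate block (adjusted p = 0.0666), on the 6 arrays of the comparison (adjusted p = 0.0611), or without WT replicate 1, 2 or 3, G609G replicate 2 or 3 or LCS replicate 3 (adjusted p from 0.0538 to 0.165). With probe sets above the 25th percentile only, the fold was 0.03 (adjusted p = 0.824), and relative to the median gene it was 0.75 (adjusted p = 0.000247). Of its 9 probe sets, 5424912 read 3.56, 5.21 and 5.85 in WT, 8.63, 8.16 and 8.78 in G609G, and 3.56, 3.95 and 2.95 in LCS. Probe set 4954127 read 3.71, 3.89 and 3.75 in WT, 5.89, 6.75 and 7.03 in G609G, and 3.23, 3.31 and 3.49 in LCS. Both were higher in G609G on every array. The 3 brightest, 5610135, 4693080 and 5423670, differed between G609G and WT by 0.15, -0.25 and -0.15. Spink10 was singled out after its probe set values were seen, and the probe sets were not tested against each other.

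Genes related to the members by domain or target were taken from lists chosen for their roles. Of 22 genes outside the 4 families listed for related inhibitor domains, 11 rose and 1 fell in LCS minus WT (median 0.18). In G609G minus WT 5 rose and 14 fell (median -0.44), or 8 and 9 relative to the median gene. The shares over all genes given above apply here too: 15.7% rose and 11.2% fell in LCS minus WT, 13.0% rose and 54.8% fell in G609G minus WT, and 45.4% rose and 27.7% fell in the latter relative to the median gene. Slpi, a secreted WAP inhibitor of neutrophil elastase, rose in both (0.72 in LCS, adjusted p = 3.04e-05, and 0.37 in G609G, adjusted p = 0.00105). Spinlw1, the older name of Eppin, which joins a WAP and a Kunitz domain and coats sperm, rose by 0.36 in LCS (adjusted p = 1.76e-05) and fell by 0.58 in G609G (adjusted p = 5.75e-08). Of 21 genes of proteases or related proteins, 2 rose and 5 fell in LCS and 2 rose and 10 fell in G609G. The G609G counts turned to 12 risen and 3 fallen relative to the median gene. St14, the gene of matriptase, fell by 1.95 in G609G (adjusted p = 6.17e-09) and was at -0.12 in LCS (adjusted p = 0.38). Prss8, a membrane-anchored protease of epithelia, was at -0.93 in G609G (adjusted p = 5.83e-07) and -1.09 in LCS (adjusted p = 9.23e-07), and Acr, the gene of acrosin, fell by 0.76 in LCS (adjusted p = 4.6e-05). Of 13 other antimicrobial proteins and receptors, 5 rose and 1 fell in LCS, and 3 rose and 4 fell in G609G, or 9 and 4 relative to the median gene. The one that fell in LCS was Ltf, the gene of the iron-binding protein lactoferrin (-1.77, adjusted p = 3.27e-07), and Ccr6 was at 0.18 in LCS (adjusted p = 0.139).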

How the data were processed

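Total RNA of perigonadal white fat was biotin-labelled and hybridised to exon arrays. As judged from their range, the values the authors deposited are log2 intensities of 229581 probe sets on 9 arrays; their normalization and software are not given in the sources used here, and the submitters' processing notes name build mm9. Array medians of these values ran from 7.17 to 7.28 in WT, 6.52 to 6.63 in G609G and 7.19 to 7.26 in LCS. The number of arrays limits the precision.

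Probe sets with exactly 1 symbol (208397) were summarised per gene by median polish, with no intensity filter. Of the rest, 3965 had several symbols and 17219 none. Of the 46 members 45 had current symbols and 1 a synonym in RefSeq (assembly GRCm38.p6), the source also of gene order and promoter windows. limma (lmFit, eBayes with a trend) was fitted over all genes and arrays, and every adjusted p is from it unless stated. Genes named are, per comparison, up to 12 largest called rises and falls whose groups do not overlap, the 3 members with the highest WT mean in each family, and 17 of a fixed set of 26 symbols; others are named to complete a count, a gene run or a scaling. The members and lists were chosen with earlier results of these data known.

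The correlations between deviations from the group means were 0.146, 0.115 and 0.298 for G609G and WT arrays of one number, each above 0.1, so those numbers were taken to pair the arrays; the labels do not say what they share. Steps were tested on simulated data. R 4.3.3, limma 3.58.1, the package data.table (version 1.17.8), Python 3.11.15, Biopython 1.88 and matplotlib 3.10.9 were used.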

Additional observations from a re-analysis of the deposited data

How the results depend on the processing

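In total 14 alternatives and 9 fits without 1 array were run on the counts of members called and on 138 log2 folds. Of the values of these folds 9 reversed: Wfdc13 in G609G minus WT (0.28), Spink4 in G609G minus WT (0.34), Spink4 in G609G minus LCS (0.46) and Defb13 in G609G minus LCS (0.37), each relative to the median gene without and with the replicate block, and Defb13 again with quantile normalization (0.44). Apart from these, 76 values lost and 83 gained a call under the 14 alternatives, and 43 lost and 15 gained one without 1 array. The members called higher in G609G minus WT were 12 and became 20 with quantile normalization, 23 relative to the median gene without or with the replicate block, 20 centred on all genes, 7 with the 29 members that passed the filter on dim genes, and 3 with the methods' t-test at their fold of 1.5, which called 19 in either direction. With the filter 15 were higher in G609G minus LCS and 1 in LCS minus WT. After Benjamini-Hochberg the methods' t-test called 28 members for G609G against WT, 29 for LCS against WT and 32 for the mutants against each other. The replicate block over the 9 arrays called 34, 32 and 36, against 32, 31 and 36 without it, so the pairing changed no count by more than 1.5 times; on the arrays of each comparison it called 37, 32 and 36. The numbers were not taken to pair LCS with WT arrays (correlations of -0.13, 0.166 and 0.071) or with G609G arrays (-0.119, 0.099 and 0.091). In LCS minus WT the block passed Defb6 (0.31, adjusted p = 0.0248), and beside the changes already given it moved no other call over the 9 arrays. Without 1 array, G609G minus WT had 30 to 34 members called (9 to 13 higher, 20 to 22 lower), LCS minus WT 29 to 32 (2 to 3 higher, 27 to 29 lower) and G609G minus LCS 31 to 37 (20 to 24 higher, 11 to 13 lower). The members called lower in LCS minus WT ranged from 23, with the filter, to 29 over the other alternatives. The cause of these shifts was not tested, beyond the smaller number of members with the filter. No detection call was used here, so signal over background is not known.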
